A study of Rattus norvegicus with 27 samples.

Results

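Ribosomes are built from ribosomal RNA and a set of ribosomal proteins. The small (40S) subunit reads the mRNA and the large (60S) subunit forms the peptide bonds. Their genes are among the most strongly transcribed in any cell, and a gland whose acinar cells export digestive and protective proteins places a heavy load on translation. The mRNAs of most ribosomal proteins begin with a run of pyrimidines, through which the kinase mTOR controls how well they are translated, so mRNA level and protein output need not move together.

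The genes described here encode the cytosolic ribosomal proteins of the rat. They were taken by symbol from the probe annotation: Rpl or Rps followed by a digit, Rplp0 to Rplp2, or Rpsa, without the Rps6k kinases and without pseudogene or "like" entries. Each gene was read through the probe set with the highest mean over all 27 arrays. The rule found 48 of the 14217 genes that had a probe set of their own, 33 of the 60S and 15 of the 40S subunit. Of these, 38 were ribosomal proteins proper with a bright probe set, mean level 11.55 to 13.72 log2 units. For 4 others, Rpl28, Rpl30, Rpl39 and Rps13, the only such probe set was dim, at 4.78 to 7.87. The last 6 were paralogs, Rps27l, Rpl7l1, Rps4y2, Rpl3l, Rpl26l1 and Rpl39l1. A further 36 probe sets were paired with several symbols, at least 1 of them a ribosomal protein, and no gene was named from them. Rplp1 occurred only on such a probe set and Rplp2 had no probe set in the annotation used here. Rplp0, the protein that anchors the stalk of the 60S subunit, had a mean level of 12.62.

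The cells were parotid acinar cells cut out by laser from sections of Sprague Dawley rats, at embryonic days 18 and 20 (E18, E20), at birth (P0) and at postnatal days 2, 5, 9, 15, 20 and 25 (P2 to P25), with 3 arrays per age, each from its own litter. No treatment or transgene was involved. The study grouped the ages on these same arrays into 4 stages. Stage 1 joined E18, E20 and P0 (9 arrays), and the following ages were joined in pairs of 6 arrays each, P2 with P5 as stage 2, P9 with P15 as stage 3, and P20 with P25 as stage 4. Sections came from halved heads through P5 and from dissected glands from P9 on. Age and preparation therefore cannot be told apart in any comparison across that step, including stage 4 against stage 1. Comparisons within 1 preparation were stage 2 against stage 1 and stage 4 against stage 3.

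The defining markers of the labelled cell type were low in stage 1 and high later. The mean level of 10 serous acinar markers was 5.64 ± 0.70 (SD, n = 9) in stage 1, 9.03 ± 0.28 (SD, n = 6) in stage 2 and 13.06 ± 0.10 (SD, n = 6) in stage 4, and all 10 rose between stages 1 and 4. Markers of other cells were also present. The mean of 17 skeletal muscle markers ran from 4.76 to 12.19 between arrays of stage 3 alone, and 12 fibroblast markers averaged 10.49 in stage 1 and 9.30 in stage 4. Arrays of 1 age correlated at 0.873 to 0.962. In captured tissue, fewer cells of a type and less RNA per cell cannot be told apart. The values are robust multi-array averages, an array signal on the log2 scale in which 1 unit is a doubling, and levels of different probe sets were not set against each other.

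The promoter table of RefSeq (build GRCr8) was searched for pyrimidine runs near the starts of the members. A run was at least 8 consecutive C or T bases on the gene's strand, from 30 bases before to 30 bases after the annotated start. Of the 48 genes, 43 had an entry, and 31 of those (72.1%) held such a run, against 23.2% of all 33469 promoters. Among the 34 bright ribosomal proteins with an entry the share was 76.5%. The letters CCGGAAG, which the ETS family of factors binds, were also searched, on either strand anywhere in the 300-base window, where their reverse complement CTTCCGG can overlap a pyrimidine run. They occurred in 10 of the 43 (23.3%) and in 8.75% of all promoters. Annotated starts can be off by several bases, so a missing run says only that these letters were not in this window. A run that was found need not begin the mRNA. In Rps6 it was 10 bases long and began 27 bases before the annotated start, and in Rps16 it began 14 bases after it. The share of mRNAs that begin with such a run was not tested. The stretches of the 7 genes below were chosen because they span the results: Rps9, Rps16 and Rplp0 fell most among the bright proteins, Rps23 and Rpl5 fell by an intermediate amount, and Rps15 and Rps24 did not pass the test. Capitals mark the pyrimidine run.
Rps9, chr1:74430422-74430449, minus strand: ggcggccacgTTTCTCTTTgtcacgggc
Rps16, chr1:92770664-92770691, plus strand: gccccaagCTTTCCTTTTCCggtggcgg
Rplp0, chr12:46718376-46718403, minus strand: ccgcaccgcaCTTCTCTCgccaggcgtc
Rps23, chr2:23814511-23814538, plus strand: cctgCCTCTCTTCTCTCTTTCTCTCggg
Rpl5, chr14:1995221-1995248, minus strand: ctccagccaCTCTCTTTCCCacgtcgct
Rps15, chr7:10068100-10068127, minus strand: tgacaccgCTTCCTTTTCCCagcagccg
Rps24, chr16:96503-96530, plus strand: gagcggTCCTCTTTTCCTCCTTTacagc
The run was 8 bases long in Rplp0, 9 in Rps9, 12 in both Rps16 and Rps15, and 21 in Rps23.

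The first question was whether the ribosomal proteins changed with age at all. Their mRNAs were highest around birth and lowest in the oldest animals. The mean of the 38 bright proteins was 12.93 ± 0.06 (SD, n = 3) at E18, 13.04 ± 0.09 at E20 and 13.09 ± 0.05 at P0. It was then 12.93 ± 0.07 at P2, 12.86 ± 0.16 at P5, 12.70 ± 0.15 at P9, 12.84 ± 0.16 at P15, 12.73 ± 0.15 at P20 and 12.52 ± 0.04 at P25. The 3 arrays of P25 lay between 12.48 and 12.56, below the lowest array of stage 1 at 12.86. Of the 38 genes, 29 had their highest age mean at P0 and 31 their lowest at P25. The same counts were not made for other probe sets, and no step between adjacent ages passed for any member. In the F test over the 9 ages 17 of 48 genes passed an adjusted p of 0.05 (35.4%), where 24.5% of all 31042 probe sets passed. The 6 smallest adjusted p-values belonged to Rps27l (0.000682), Rps9 (0.00118), Rpl7l1 (0.00931), Rps4y2 (0.0109), Rpl7 (0.012) and Rpl3 (0.0139). The count fell to 5 without 4 arrays with high foreign tissue markers (replicate 1 of E18, E20 and P0, and P5 replicate 2). Other arrays with high markers stayed in that fit, such as P9 replicate 3 with a skeletal muscle marker mean of 12.19. With marker levels of muscle, epidermis with hair, and cartilage with bone in the fit, the count was 3. It was 7 without P25 replicate 3, 9 without P0 replicate 1, 10 without either P25 replicate 1 or P25 replicate 2, and 11 without either E20 replicate 2 or P0 replicate 3. The share of all probe sets past the F test was not counted in these fits. A move of the members therefore cannot be told apart from one over all probe sets.

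**Figure D1:**
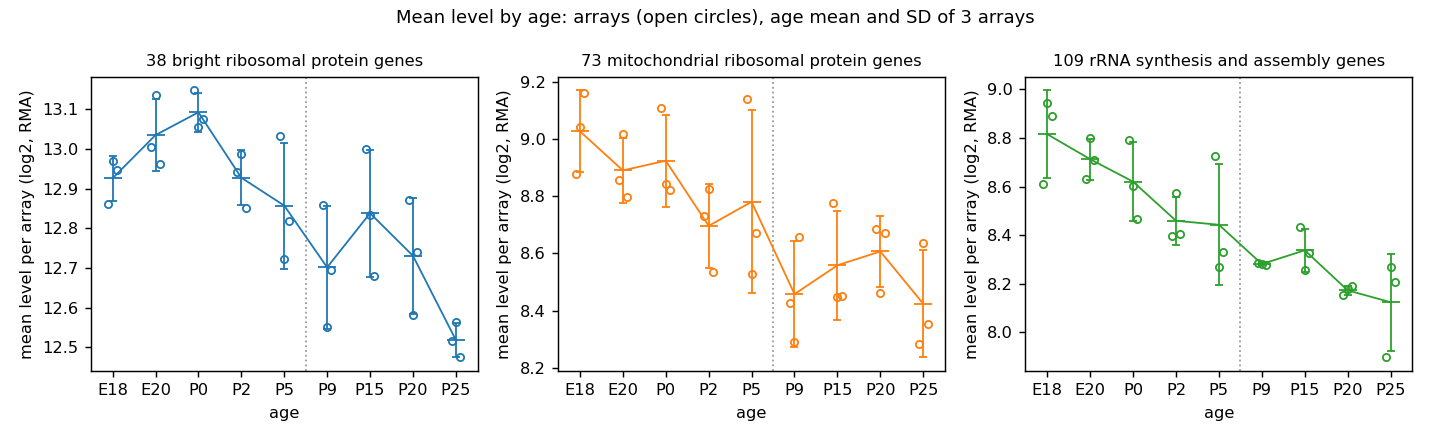
Mean level per array on the log2 scale against age, for the 38 bright ribosomal proteins, 73 mitochondrial ribosomal proteins and 109 genes of rRNA synthesis and ribosome assembly. Open circles are arrays, horizontal bars and whiskers the mean and SD of 3 arrays, and the dotted line separates sectioned heads from dissected glands. The cytosolic set peaks at P0 at 13.09 and is lowest at P25 at 12.52.

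Between stage 1 and stage 4 the ribosomal proteins moved almost entirely downward. Of the 48 genes 29 fell and 1, Rps27l, rose, so 62.5% were called, where 45% of all probe sets were called, 17.8% lower and 27.2% higher. Among the 38 bright proteins 26 fell and none rose, with 19 of 26 in the 60S and 7 of 12 in the 40S subunit. Their median change was -0.41 log2 units, and that of all 48 was -0.36. The median over all probe sets was +0.19, so relative to it the 48 genes stood at -0.55. The unnamed probe sets with several symbols gave the same count pattern, with 23 of 36 lower, 0 higher and a median of -0.43 (24 had an unadjusted p under 0.05). In 18 genes every stage 4 array lay below every stage 1 array (37.5%, against 5.46% of all probe sets), and in 1, Rps27l, every array lay above (against 5.38%).

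Other probe sets in the same range of brightness were also mostly lower. They were matched to the bright proteins by the lowest and highest mean level only, not by the levels between. Among the 260 other probe sets with mean levels in the range of the bright proteins, 56.5% were lower and 16.5% higher in stage 4, with a median change of -0.40, where the 38 bright proteins had 68.4% lower, none higher and a median of -0.41. Of the 260, 34.6% had every stage 4 array below every stage 1 array. The spread of an array's values, its SD over all probe sets, narrowed from 2.35 ± 0.05 (SD, n = 9) in stage 1 to 2.15 ± 0.08 (SD, n = 6) in stage 4. Over the probe sets outside the ribosomal proteins, the median change passed from +0.45 at a mean level near 4.51 to -0.44 near 11.43. At higher levels the fall was smaller, with -0.39 near 12.39 (125 probe sets, 56% lower) and -0.13 near 13.46 (14 probe sets, 35.7% lower). When all arrays were given 1 distribution by quantile normalisation, 23 ribosomal proteins were lower and 1 higher, with a median of -0.23. Among the 38 bright proteins 20 (52.6%) were then lower, with a median of -0.26, where the 260 other bright probe sets had 38.5% lower and a median of -0.24. On both scales the medians lay near each other and the share lower was larger in the bright ribosomal proteins, a difference that was not tested. With the marker levels of muscle, epidermis and cartilage in the fit, 21 of 48 genes fell (43.8%), where 11.9% of all probe sets and 40% of the 260 bright ones did, and 19 of the 38 bright proteins (50%). In the same contrast 9 of 12 fibroblast markers were lower and 9 of 12 lymphocyte and plasma cell markers higher, led by Jchain, and the part of these cells in the result was not tested.

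**Figure D2:**
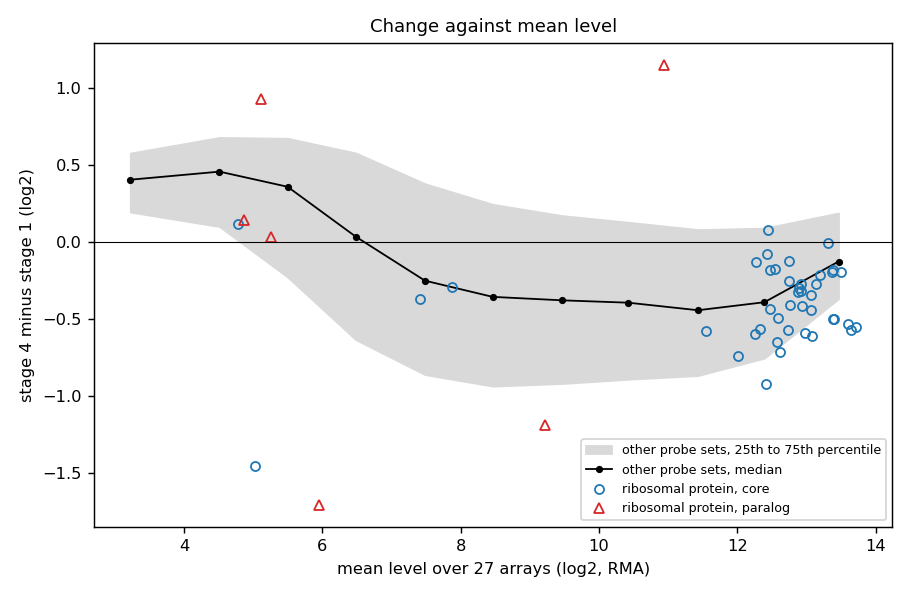
Change from stage 1 to stage 4 (log2) against the mean level over 27 arrays (log2). The black line is the median and the grey band the 25th to 75th percentile of probe sets outside the ribosomal proteins, by level. Circles are the ribosomal proteins proper, of which the 38 bright ones run from -0.92 to 0.07. The 4 dim ones are also circles and include Rpl28 at -1.46. The other probe sets had a median of -0.39 near a level of 12.39 and of -0.13 near 13.46. The paralogs (triangles) include the largest rise, Rps27l at 1.15.

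The largest falls among the bright proteins were those of Rps9, Rps16 and Rplp0. Rps9 is a small subunit protein that binds 18S rRNA early in assembly. Its stage 1 arrays ran from 12.68 to 12.90 with a median of 12.82, and its stage 4 arrays from 11.55 to 12.15 with a median of 11.88. The groups did not overlap. The fall was 0.92 log2 units (1.9-fold, SE 0.13, adjusted p = 7.63e-06). Rps16, whose tail reaches the peptidyl-tRNA site, ran from 12.19 to 12.69 (median 12.32) in stage 1 and from 11.34 to 12.07 (median 11.51) in stage 4, again without overlap, and fell by 0.74 (SE 0.15, adjusted p = 0.000444). Rplp0 ran from 12.72 to 13.09 (median 13.00) in stage 1 and from 12.00 to 12.81 (median 12.16) in stage 4. P20 replicate 1, at 12.81, was the array that overlapped stage 1. Rplp0 fell by 0.71 (1.64-fold, SE 0.14, adjusted p = 0.000458). The gene is also known as Arbp and serves widely as a reference gene in quantitative PCR. Its age means went from 12.90 ± 0.17 (SD, n = 3) at E18 through 13.03 ± 0.03 at P0 to 12.10 ± 0.13 at P25.

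Rps6, Rpl5 and Rpl11, which also have roles in signalling, fell. Rps6, the 40S protein that S6 kinase phosphorylates downstream of mTOR, ran from 13.69 to 13.90 (median 13.75) in stage 1 and from 12.87 to 13.43 (median 13.26) in stage 4, without overlap, and fell by 0.54 (SE 0.11, adjusted p = 0.000456). Rpl5 and Rpl11 bind 5S rRNA, and outside the ribosome they inhibit Mdm2 and so raise p53. Rpl5 ran from 13.83 to 14.04 in stage 1 and from 13.20 to 13.51 in stage 4, and fell by 0.55 (SE 0.10, adjusted p = 0.00031). Rpl11 ran from 12.68 to 13.03 and from 12.06 to 12.75, so its groups overlapped, and it fell by 0.50 (SE 0.13, adjusted p = 0.00364). Rpl3, a protein near the catalytic centre of the 60S subunit, fell by 0.61 (SE 0.11, adjusted p = 0.000162), and Rps3, at the mRNA entry site, by 0.59 (SE 0.14, adjusted p = 0.00155).

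Other members stayed near 0, and these were picked out after their values were seen. Rps29, a small zinc-binding 40S protein, ran from 13.11 to 13.52 in stage 1 and from 13.22 to 13.43 in stage 4, with a change of -0.01 (95% interval -0.23 to 0.21). Rps15 changed by 0.07 (-0.22 to 0.36) and Rpl7a by -0.08 (-0.32 to 0.16). Rpsa, the laminin receptor as well as a 40S protein, changed by -0.20 (-0.41 to 0.01, adjusted p = 0.115). Its other probe sets differed from it, with -0.65 (adjusted p = 0.00424) and 0.14 (adjusted p = 0.354). Rpl3 also had a second, dimmer probe set, at 0.28 (adjusted p = 0.0932), while the probe sets of Rpl14, Rpl7 and Rpl7l1 all passed as lower. With the mean of both its probe sets Rpl3 changed by -0.17 (adjusted p = 0.233). For Rps24 the bright probe set changed by -0.25 (adjusted p = 0.127) and a dim one by -0.90 (adjusted p = 0.0112).

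**Figure D3:**
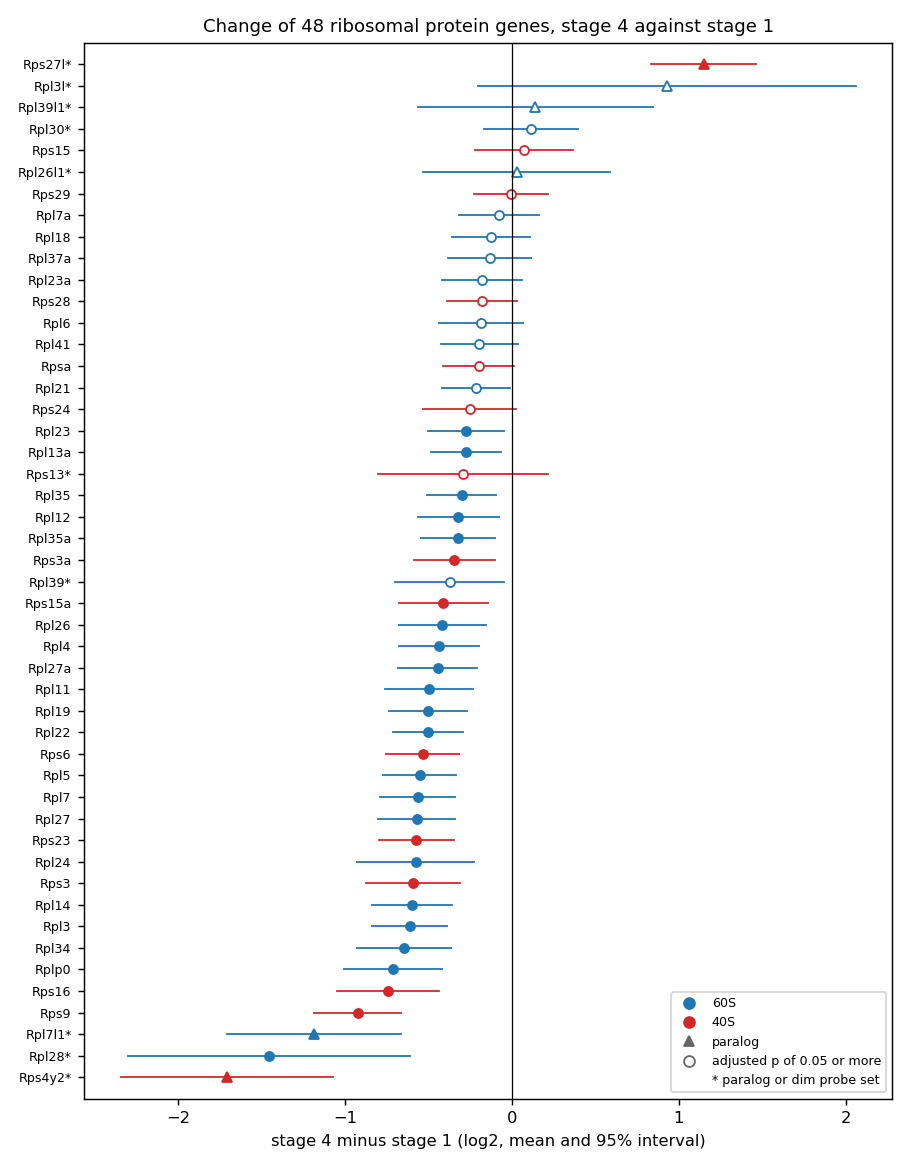
Change from stage 1 to stage 4 (log2) of each of the 48 genes with its 95% interval, ordered by size. Blue is 60S, red 40S, triangles are paralogs, open symbols have an adjusted p of 0.05 or more, and an asterisk marks a paralog or a dim probe set. The filled symbol to the right of 0 is Rps27l at 1.15, and Rps9 at -0.92 has the largest fall among the bright proteins.

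To compare the members with each other, each array was centred on the median of its 38 bright ribosomal proteins, a setting chosen after the data were seen. On this scale 55.4% of all probe sets were called in stage 4 against stage 1, with a median change of 0.53. The adjusted p-values below depend on that share, since the adjustment ran over all probe sets. Of the 38 bright proteins 6 were lower and 2 higher than their peers. Rps9 stood at -0.59 (SE 0.11, adjusted p = 0.00024), Rps16 at -0.41 (SE 0.12, adjusted p = 0.00513) and Rplp0 at -0.38 (SE 0.12, adjusted p = 0.00882). Rpl34, Rpl3 and Rpl14 were the other lower genes, at -0.31, -0.28 and -0.27. The higher ones were Rps15 at 0.41 (SE 0.13, adjusted p = 0.00888) and Rps29 at 0.33 (SE 0.11, adjusted p = 0.0145). Relative to its peers Rps9 ran from -0.28 to -0.11 in stage 1 and from -1.02 to -0.62 in stage 4, without overlap. The other 30 bright proteins did not pass, so no difference from the family's median was detectable for them with these arrays.

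Of the 6 paralogs 1 rose, 2 fell and the others gave no call. Rps27l, a close relative of Rps27 and a p53 target gene, had stage 1 arrays from 10.04 to 10.89 (median 10.52) and stage 4 arrays from 11.38 to 11.89 (median 11.66). It rose by 1.15 (2.22-fold, SE 0.15, adjusted p = 5.39e-06). Its age means were 10.24 ± 0.26 (SD, n = 3) at E18 and 10.78 ± 0.16 at P0, and stood at 11.68 ± 0.05 at P20 and 11.61 ± 0.26 at P25. No probe set of its own named Rps27, so parent and paralog could not be set side by side. Rpl7l1, a nucleolar relative of Rpl7, ran from 9.51 to 10.14 in stage 1 and from 7.88 to 9.44 in stage 4, without overlap, and fell by 1.19 (SE 0.25, adjusted p = 0.000824). P2 replicate 3 stood apart at 11.19, where its companions were at 9.10 and 9.54. The parent Rpl7, a 60S protein, fell by 0.56 (SE 0.11, adjusted p = 0.000361). Rps4y2, a relative of Rps4 annotated on chromosome 4, was dim, from 5.64 to 7.47 in stage 1 and from 4.23 to 5.44 in stage 4, and fell by 1.71 (SE 0.31, adjusted p = 0.000187). P9 replicate 1 was high for its age at 7.37, against 5.32 and 5.42. Cross-hybridisation between a paralog and its parent was not tested.

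The remaining paralogs gave no call between stages 1 and 4. Rpl3l replaces Rpl3 in the ribosomes of heart and skeletal muscle. It ran from 3.92 to 4.65 in stage 1 and from 4.47 to 6.83 in stage 4, a difference of 0.93 (95% interval -0.20 to 2.06, adjusted p = 0.169), and was highest in single arrays of the middle ages. In P9 replicate 3 it reached 9.59, and the skeletal muscle marker mean was 12.19 in that array. In P5 replicate 1 the values were 7.80 and 10.27, in P20 replicate 2 they were 6.83 and 8.96, and in P25 replicate 1 they were 5.22 and 5.26. High marker means also occurred with low Rpl3l. In E18 replicate 1 Rpl3l was 4.51 beside a marker mean of 10.51, E20 replicate 1 had 3.92 beside 10.62, P0 replicate 1 had 4.05 beside 10.14, and P25 replicate 3 had 5.14 beside 9.23. The part of muscle in these values was not tested. Rpl26l1 differed by 0.03 (-0.53 to 0.59), where its parent Rpl26, which lies at the tunnel exit, fell by 0.42 (SE 0.13, adjusted p = 0.0114). Rpl39l1 differed by 0.14 (-0.56 to 0.84) and Rpl39, a short protein of the exit tunnel, by -0.37 (-0.70 to -0.05, adjusted p = 0.0561). Among the dim probe sets Rpl28 fell by 1.46 (SE 0.41, adjusted p = 0.00683), with arrays from 4.98 to 6.91 in stage 1 and from 3.54 to 5.20 in stage 4. Its mean level was 5.02, and its P2 arrays alone ran from 3.52 to 7.04. Whether so dim a probe set reads the Rpl28 mRNA was not tested.

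**Figure D4:**
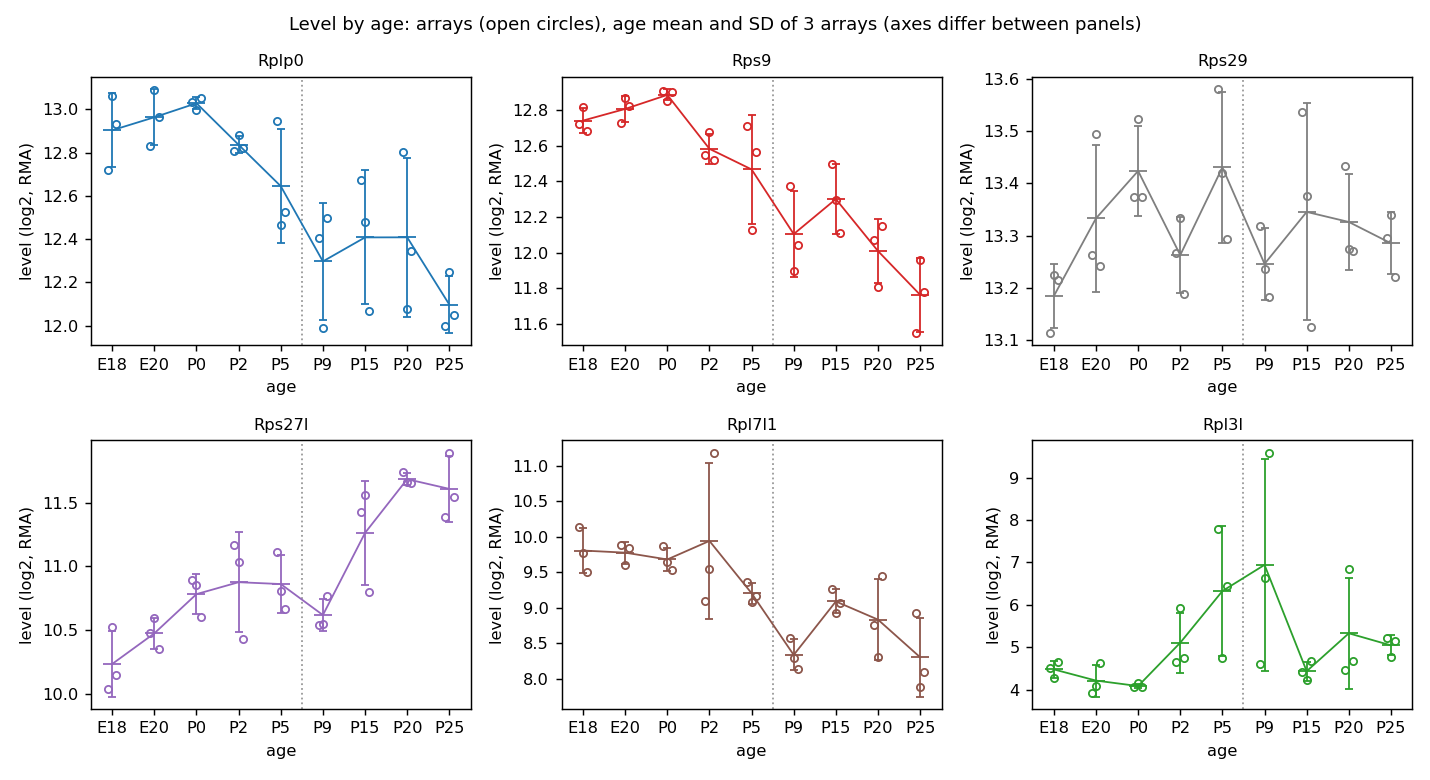
Level (log2) against age for Rplp0, Rps9, Rps29, Rps27l, Rpl7l1 and Rpl3l, each panel on its own scale. Open circles are arrays, bars and whiskers the mean and SD of 3 arrays, and the dotted line separates heads from glands. Rps9 and Rplp0 decline from P0, Rps27l is highest at P20 at 11.68, and 1 array of P9 lifts Rpl3l to 9.59.

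P25 against E18 compared the oldest with the youngest rats. Here 16 genes fell and 1 rose (35.4% of 48), where 33.5% of all probe sets were called, 13.4% lower and 20.1% higher. All 17 also passed the F test. The median of the 48 genes was -0.39, against +0.24 over all probe sets. Among the 38 bright proteins 14 were lower (36.8%), with a median of -0.42. Among the 260 other bright probe sets the share was larger, at 43.8%, with a median of -0.45. That difference was not tested. Rps9 was lower by 0.98 (SE 0.19, adjusted p = 0.000933), Rps16 by 0.83 (SE 0.23, adjusted p = 0.00873), Rplp0 by 0.81 (SE 0.22, adjusted p = 0.00838) and Rps4y2 by 2.31 (SE 0.47, adjusted p = 0.00125), and Rps27l was higher by 1.37 (SE 0.23, adjusted p = 0.000235). Fitted on the 6 arrays of these ages alone, 1 gene was lower, and the share of all probe sets was not counted in that fit.

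Between neighbouring stages few members passed. In stage 2 against stage 1, both from sectioned heads, 0 of 48 genes passed in limma (6 with an unadjusted p under 0.05), where 2.96% of all probe sets did. The median change was -0.12, against -0.01 over all probe sets and -0.07 in the 260 other bright ones. Of the 48 genes 43 were below 0, a count not made for other probe sets. Without P2 replicate 1 the number that passed was 1. In stage 3 against stage 2, across the change of preparation, 0 passed (6 unadjusted) with 0.76% of all probe sets called. The median of the 48 genes was -0.10, against +0.07 over all probe sets and -0.15 in the 260 other bright ones. The bright protein with the smallest adjusted p there was Rplp0, at -0.39 (adjusted p = 0.235). In stage 4 against stage 3, both from dissected glands, 2 passed (12 unadjusted) with 8.36% of all probe sets called. Among the 38 bright proteins 1 was lower (2.63%), with a median change of -0.13. Of the 260 other bright probe sets 18.8% were lower, with a median of -0.16. Rps27l was higher by 0.71 (SE 0.17, adjusted p = 0.0102) and Rpl7 lower by 0.40 (SE 0.12, adjusted p = 0.0408). The number of members that passed was 1 in each of 13 fits that left out a single array, and 13 members passed without moderation of the variances. For those fits the share of all probe sets was not counted. Between adjacent ages 0 genes passed in any of the 8 steps, where 1.49% of all probe sets passed in at least 1 step.

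Other genes of ribosome assembly and translation were taken by list. Over probe sets outside the ribosomal proteins, 35.5% were lower in stage 4 than in stage 1 near a mean level of 8.46, 41.7% near 9.47, 46.4% near 10.42 and 54.1% near 11.43, so the counts below are given with each list's mean level. Of 109 genes of rRNA synthesis and ribosome assembly, with a mean level of 8.44, 48 were lower (44%) and 4 higher in stage 4 than in stage 1, with a median of -0.59. The AAA+ helicase Ruvbl2 fell by 2.10 (adjusted p = 1.91e-07), and Nop58, Nop56 and Fbl, the core of the particles that methylate rRNA, by 1.61, 1.22 and 1.49. Of 73 mitochondrial ribosomal proteins, which build the separate ribosome of that organelle and had a mean level of 8.71, 31 were lower (42.5%) and 3 higher, with a median of -0.51. Mrpl19 fell by 1.66, Mrpl39 by 1.59, Mrps33 by 1.21 and Mrps26 by 0.81. Rack1, a scaffold on the 40S subunit that the symbol rule does not take in, fell by 0.56 (adjusted p = 0.00151). After quantile normalisation 30 assembly genes and 17 mitochondrial ribosomal proteins were lower. Without replicate 1 of E18, E20 and P0 and P5 replicate 2, 19 mitochondrial ribosomal proteins were lower. With the marker levels in the fit 18 were.

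Of 25 initiation factors, mean level 10.58, 13 were lower (52%) and 2 higher, with a median of -0.35. Eif3h, Eif3f and Eif3d, subunits of the factor that holds the 40S subunit for mRNA, fell by 0.69, 0.69 and 0.67, and Eif4b, a helicase partner, by 0.81. Eif5b, which joins the subunits, rose by 0.66 (adjusted p = 0.0011). Of 6 elongation factors, mean level 11.82, 4 were lower (66.7%). These were Eef1g, Eef1b2, Eef1d and Eef1a1, which deliver aminoacyl-tRNA or recharge the factor that does, at -0.85, -0.67, -0.54 and -0.41. Eif5a, which helps at difficult peptide bonds, rose by 0.43 (adjusted p = 0.0216). Eef2, the translocase, differed by -0.02 (adjusted p = 0.919). After quantile normalisation 8 initiation and 2 elongation factors were lower.

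Regulators moved in both directions. Of 23 genes in the mTOR branch that controls ribosome output, mean level 8.55, 6 were lower (26.1%) and 5 higher. That share was below the 35.5% of other probe sets near a level of 8.46. Eif4ebp1, the mTOR target that holds back cap-dependent translation, rose by 1.95 (adjusted p = 1.24e-07), Pdcd4, an inhibitor of the helicase Eif4a, by 1.19 (adjusted p = 3.62e-05), and Rragd, a GTPase that brings mTOR to the lysosome, by 2.00 (adjusted p = 0.000522). Maf1, a repressor of RNA polymerase III, fell by 0.95 (adjusted p = 9.84e-05). Of 11 transcription factors linked to growth and ribosomal genes, mean level 7.90, 3 were lower (27.3%) and 1 higher. Other probe sets had 28.3% lower near a level of 7.48 and 35.5% near 8.46. Max, the partner of Myc, fell by 0.72, Yy1 by 0.67 and Gabpa, an ETS factor, by 1.09, while Mxd4, a Max partner that opposes Myc, rose by 1.94 (adjusted p = 0.000375). After quantile normalisation 1 gene of the mTOR branch was lower. All 14 mitosis genes, mean level 8.33, were lower in stage 4, and Cdk1 fell by 3.05.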

How the data were processed

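Acinar cell RNA from 27 samples was amplified from 1.5 or 4.5 ng (which samples had which amount is not stated) and hybridised to Affymetrix rat genome arrays. The authors deposited log2 values made with the RMA method, which corrects background, normalises between arrays and summarises the probes of a set. The RMA software version is not given in the sources used here. The number of arrays limits the precision, and p-values measure the spread between litters. Of 31099 probe sets 57 controls were left out. Groups came from the sample labels.

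limma 3.58.1 in R 4.3.3 was fitted on the deposited values with 1 coefficient per age and 18 residual degrees of freedom. Contrasts of stages and ages and a moderated F test were two-sided and adjusted by Benjamini-Hochberg over 31042 probe sets, with a threshold of 0.05. The fit was tested on simulated data. The members and gene lists were chosen with earlier results of these data known. Named members were Rplp0, Rpsa, Rps6, Rpl5, Rpl11, the paralogs with their parents, the 6 largest rises and falls past the threshold per contrast and the 6 smallest F-test p-values, with up to 4 genes of each other list. Any others were chosen after their values were seen. Alternatives covered scaling, probe set choice, a filter, weights, covariates, moderation and leaving out arrays. Of the 48 members 46 matched the RefSeq gene table by gene ID.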

Additional observations from a re-analysis of the deposited data

How the results depend on the processing

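In stage 4 against stage 1 the number of members that were lower stayed within 1.5 times of 29 across the settings tried for scaling, probe set choice, filtering, weights, covariates, moderation, blocking and leaving out arrays, from 21 with marker levels as covariates to 34 without moderation, and from 25 to 29 when 1 array was left out, except for centring on the bright ribosomal proteins, which left 9 lower. Quantile normalisation moved the median change to -0.23 in this contrast and to -0.25 in P25 against E18, and the number of other genes that were lower to 30 for rRNA synthesis and assembly, 17 for mitochondrial ribosomal proteins, 8 for initiation, 2 for elongation and 1 for mTOR signalling. With muscle, epidermis and cartilage markers in the fit the median was -0.53 in P25 against E18 and -0.24 in stage 2 against stage 1, 18 mitochondrial ribosomal proteins and 8 initiation factors were lower, and 3 members passed the F test. That F count was 17, and became 10 with arrays centred on their medians, 11 among the probe sets at or above the median level, 9 with the GAPDH 3' to 5' difference as a covariate, 5 without 4 arrays together (19 mitochondrial ribosomal proteins were then lower) and 29 without moderation. It ran from 7 to 18 when 1 array was left out. Fitted on only the ages in the contrast, 1 member was lower in P25 against E18, 2 were higher in stage 4 against stage 1, and 0 passed in stage 4 against stage 3. Without moderation 28 were lower in P25 against E18 and 13 passed in stage 4 against stage 3. In the latter contrast 1 passed with arrays centred on their medians, with the mean of all probe sets of a gene and with array weights, 4 after quantile normalisation, and 1 to 2 when 1 array was left out. Leaving out 1 array gave 0 to 1 in stage 2 against stage 1. Apart from the centred scale, shares of all probe sets under these settings were counted only in stage 4 against stage 1. There they were counted with quantile normalisation and with marker levels in the fit. Elsewhere a move of the members cannot be told apart from one over all probe sets.

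Centring on the median of the bright ribosomal proteins, an alternative chosen after seeing the data, removes their common change by construction. It gave medians of -0.026 in stage 4 against stage 1 and 0.024 in stage 3 against stage 2. The median change of the members in stage 2 against stage 1 was -0.00647, and the median change of the members in P25 against E18 was -0.00305. It left 9 members lower and 4 higher in stage 4 against stage 1, 3 lower and 4 higher in P25 against E18, 1 in stage 4 against stage 3 and 4 past the F test. Of all 31042 probe sets, 3513 were then lower and 13691 higher in stage 4 against stage 1, and 12400 passed the F test. Among the 260 other bright ones 78 were lower, 74 higher and 121 past the F test. Such counts were not made for the other contrasts. On that scale 24 assembly genes, 16 mitochondrial ribosomal proteins, 5 initiation factors, 2 elongation factors, 1 gene of mTOR signalling and 1 growth transcription factor were lower.

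Among the 19 members named by rule, changes of sign touched only those that were not called in the contrast concerned. On the scale centred on the bright ribosomal proteins, 5 other members that had been called lower in stage 4 against stage 1 stood just above 0 and were not called, Rpl12 at 0.01, Rpl13a and Rpl23 at 0.06, Rpl35 at 0.03 and Rpl35a at 0.01. Rpl26l1 in stage 4 against stage 1 was -0.13 after quantile normalisation, -0.076 with array weights, -0.015 with the GAPDH covariate, -0.34 with marker covariates, -0.029 without the 4 arrays, and -0.13 to 0.15 with 1 array left out. In P25 against E18 it was 0.23 on the centred scale and -0.61 to 0.16 with 1 array left out. Rpl39 in P25 against E18 was 0.24 after quantile normalisation, 0.33 on the centred scale and -0.33 to 0.082 with 1 array left out. Rpl39l1 was -0.18 in P25 against E18 and -0.10 in stage 4 against stage 1 after quantile normalisation, and -0.029 to 0.28 in the latter with 1 array left out. Rpl3l in P25 against E18 was -0.064 with marker covariates. Rpsa was 0.13 in stage 4 against stage 1 and 0.20 in P25 against E18 on the centred scale. The cause of these moves was not tested.

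Replicate numbers were not taken as pairs, since the rule asked that every same-numbered pair have a correlation of deviations over 0.1. So strict a rule could hardly be met, so it does not show that the numbers are unrelated. Over 108 such pairs the median was 0.014 and the highest 0.46, with 11 over 0.1. The median over pairs of different numbers was -0.009. Of 27 arrays 16 were closest to their own number, which is only a hint from the data. With the replicate block 30 members were lower in stage 4 against stage 1 and 17 in P25 against E18, and 17 passed the F test.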
